A study of Homo sapiens with 12 samples.

Results

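Described here are 40 genes of ribosome biogenesis and of the RNA polymerase I machinery in THP-1 cells, picked by symbol for their known roles. Each was followed through the row of the count table that held most of its reads. All 40 had such a row and all 40 passed the filter on low counts, against 15831 tested of 57002 human genes with a row. THP-1 is a human acute myeloid leukaemia line, of monocytic type with the MLL-AF9 fusion, so every group is the same single line. Cells in 4 groups of 3 libraries received the vehicle DMSO or 1 of 3 kinase inhibitors, and the labels give no dose. CDK9 is the known target of AZ5576, the kinase pair CDK12 and CDK13 that of THZ531, and CDK7 that of YKL5124. Exposure lasted 2 h, and cells of all 4 groups, vehicle included, also carried 1 mM 4-thiouridine for the closing 10 min. Libraries were of the QuantSeq 3′ type, which reads the ends of polyadenylated mRNA, and 5% Drosophila S2 material had been mixed into the purified RNA. Reads were summed here without regard to label incorporation, so the values are of total mRNA. In a culture of this kind, fewer cells carrying an mRNA and less of it per cell cannot be told apart.

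RNA polymerase I copies the ribosomal DNA repeats into a long precursor, which is cut, chemically modified and folded into the rRNA of both ribosomal subunits, mostly inside the nucleolus. Box C/D small nucleolar ribonucleoproteins (snoRNPs) guide ribose methylation and box H/ACA snoRNPs guide pseudouridylation, while the small subunit processome and the large subunit pre-ribosomes carry the cutting and folding steps. The mRNAs of these factors are made by RNA polymerase II, whose passage through pausing and elongation depends on the kinases targeted here, and many of these genes are known targets of MYC.

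The promoters show what several of the members share in sequence. RefSeq (GRCh38.p14) gave the 250 bases before the start for 34 of the 40 members. NOP58, NOLC1, POLR1E, RRP12, RRS1 and BOP1 were not matched. Both strands were searched for 3 motifs, which can overlap each other. CACGTG, the E-box read by MYC and MAX, occurred in 3 members (8.82%), against 9.13% of 9577 promoters of tested genes and 6.49% of all 27305 promoters. CCGGAAG, the core that ETS factors such as GABPA read, occurred in 12 members (35.3%), against 1625 of the 9577 promoters of tested genes and 8.82% of all. GCGCATGCGC, the NRF1 palindrome, occurred in 3 members (8.82%), against 2.07% and 1.13%. In all, 16 members held 1 or more of these motifs. The stretches below lie outside every annotated exon. They show an E-box in NOP10 and UTP20, an ETS core in FBL, GAR1 and DDX21, and an NRF1 palindrome in NOB1, with the motif in capitals. UTP4, the third member with an E-box, is not printed because its match lies in an annotated exon. FBL, GAR1, DDX21 and NOB1 were picked after their values and matches had been seen. A match is a run of letters and was not tested for binding.
NOP10, chr15:34343261-34343314, minus strand: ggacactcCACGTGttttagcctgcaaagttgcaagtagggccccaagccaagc
UTP20, chr12:101280055-101280104, plus strand: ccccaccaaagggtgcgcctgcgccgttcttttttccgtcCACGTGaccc
FBL, chr19:39846526-39846612, minus strand: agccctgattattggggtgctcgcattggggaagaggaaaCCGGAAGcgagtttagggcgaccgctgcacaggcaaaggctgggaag
GAR1, chr4:109815442-109815509, plus strand: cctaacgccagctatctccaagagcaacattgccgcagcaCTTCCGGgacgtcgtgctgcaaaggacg
DDX21, chr10:68956070-68956127, plus strand: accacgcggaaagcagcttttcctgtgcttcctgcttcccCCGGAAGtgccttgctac
NOB1, chr16:69755018-69755107, minus strand: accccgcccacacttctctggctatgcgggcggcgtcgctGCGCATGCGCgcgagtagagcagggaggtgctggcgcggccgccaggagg

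Depth ran from 5048321 to 12743576 reads on 1 row per gene, with AZ5576 library 2 the shallowest. Fly reads were 2.73% to 3.57% of the counts in a library. Of 11 monocytic marker genes, 10 had a median above 1 CPM over the 12 libraries, while CD14 lay at 0 in 4 libraries. Among markers of other cell types, the T cell genes CD3E and CD3G, the fibroblast gene COL1A2 and the red cell gene HBB were at 0 in all 12 libraries. Nothing in the labels says that a group's 3 libraries are from separate cultures, and the p-values therefore reflect only library-to-library spread, perhaps technical. CPM below are counts scaled to a common library size by TMM, a factor that assumes that most genes do not change. A gene is called higher or lower where edgeR's quasi-likelihood test gave a Benjamini-Hochberg adjusted p below 0.05 over all 15831 genes.

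The 40 members together made up 0.538% to 0.548% of human reads with DMSO and 0.578% to 0.592% with THZ531. With AZ5576 the share was 0.493% to 0.504%, and with YKL5124 it was 0.494% to 0.509%. The THZ531 libraries thus stood above the vehicle and the other 2 inhibitors below it, with no overlap between the vehicle and any inhibitor. Such a share is scaled by the read total alone. Under that scaling the median log2 fold change of all genes against DMSO was -0.12 with AZ5576, -0.29 with THZ531 and -0.023 with YKL5124. Members with many reads, such as NCL and NPM1 (means of 864 and 732 CPM with DMSO), weigh most in the share.

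With THZ531, 21 members were higher (30.4% of all genes tested were) and 8 were lower (32.9%). Their median log2 fold change was 0.25, against -0.0024 for all genes. With AZ5576, 5 members were higher (18.6% of all genes) and 16 were lower (23.1%), with a median of -0.057 against 0.0065. With YKL5124, 0 were higher (7.25% of all genes) and 14 were lower (13.5%), with a median of -0.14 against -0.0044. The number higher with AZ5576 was 3 without library DMSO 2, AZ5576 1 or AZ5576 3, and the number higher with YKL5124 was 1 without library YKL5124 1. The 3 comparisons share the DMSO libraries. These counts changed with the scaling of the libraries. When only the read total was used, the median of all genes moved to -0.29 with THZ531, -0.12 with AZ5576 and -0.023 with YKL5124. With the fly reads as the library size, these medians were -0.37, -0.17 and -0.068. The THZ531 split then became 7 higher (13.9% of all genes) and 14 lower (45.9%) by read total, and 4 (7.05%) and 14 (46.5%) by fly reads, so that a smaller share of members than of all genes was lower. For AZ5576 it became 1 higher (8.38% of all genes) and 19 lower (30%) by read total, and 0 (3.27%) and 16 (28.5%) by fly reads. For YKL5124 it became 0 higher (6.3% of all genes) and 14 lower (14.6%) by read total, and 0 (3.35%) and 10 (12.5%) by fly reads. Relative to the median of all genes under the same scaling, the members' median with THZ531 still lay higher, at -0.045 by read total and -0.12 by fly reads. The fly material was added after RNA purification, so it follows RNA amount and not cell number.

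**Figure D1:**
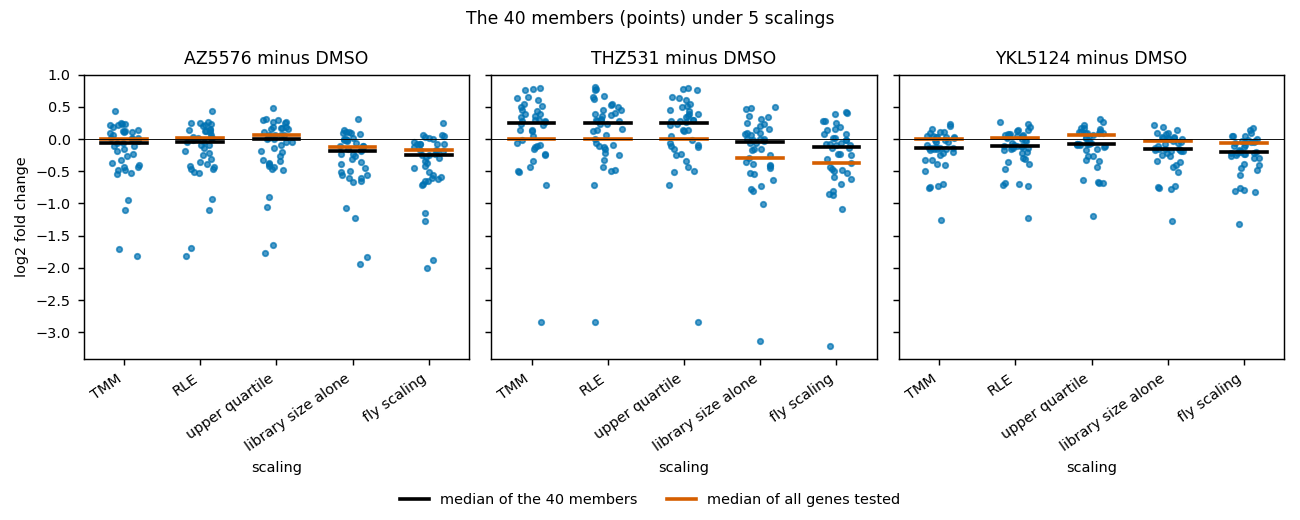
Log2 fold changes against DMSO (vertical axis) of the 40 members (points) under 5 scalings, with the members' median in black and the median of all genes tested in orange. With THZ531 both medians drop when read totals or fly reads set the scale (all-gene medians -0.29 and -0.37), and the members' median stays above that of all genes.

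With THZ531 the counts differed among the roles of the genes. Beside them, 30.4% of all genes were higher and 32.9% lower under TMM. By read total these shares were 13.9% and 45.9%, and by fly reads 7.05% and 46.5%. All 3 box C/D proteins were higher with THZ531. All 4 box H/ACA proteins were higher too, but 0 of 4 were called by read total or fly reads. All 3 nucleolar chaperones were higher, with 2 called by read total and 1 by fly reads. Of 10 small subunit factors, 5 were higher, with 2 higher and 2 lower by read total and 0 higher and 2 lower by fly reads. Of 6 RNA polymerase I genes, 0 were higher and 2 were lower, the latter near the share of all genes. The 12 large subunit factors divided into 5 higher and 6 lower, and by read total or fly reads into 0 higher and 6 lower. The roles were not tested against each other. With AZ5576, 4 of 6 polymerase genes, 4 of 10 small subunit factors and 7 of 12 large subunit factors were lower (23.1% of all genes were). With YKL5124 the numbers were 4, 3 and 6 (13.5% of all genes).

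**Figure D2:**
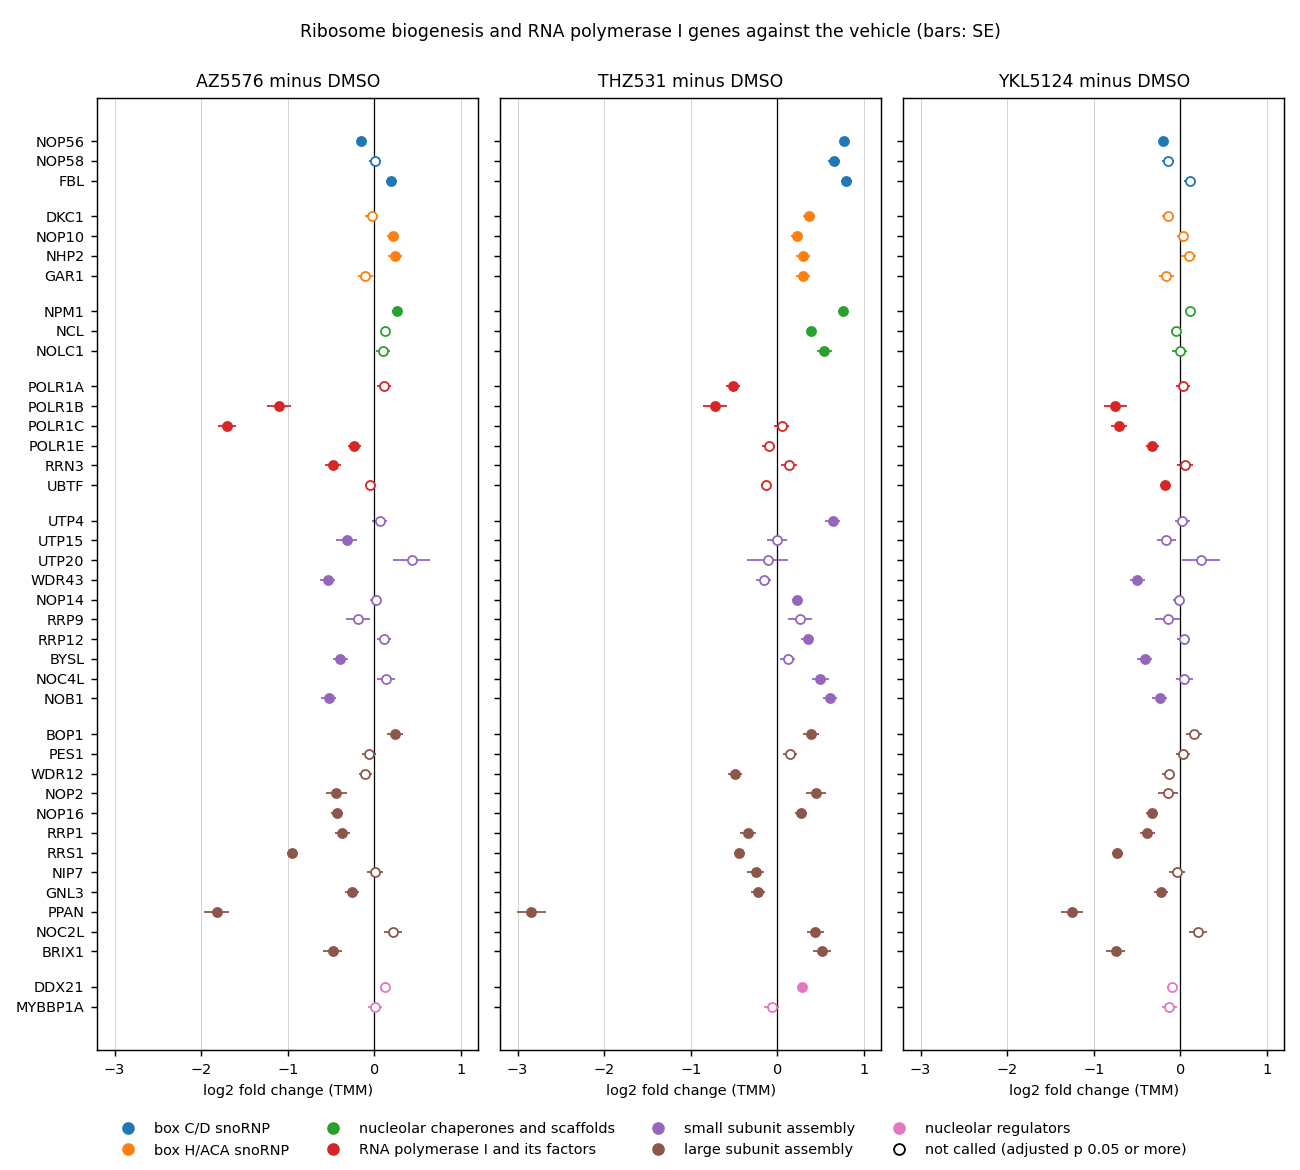
Log2 fold change (horizontal axis) with its standard error for each of the 40 members (rows, coloured by role) in the 3 comparisons with DMSO. Filled points were called. Under TMM scaling the 10 snoRNP and chaperone genes lie to the right of 0 with THZ531 (with fly reads NOP10, NHP2, GAR1 and DKC1 turn to -0.15, -0.058, -0.071 and -0.010), and PPAN lies farthest to the left in all 3 panels (-1.82, -2.84 and -1.25).

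All 3 box C/D snoRNP proteins rose with THZ531. NOP56, a core scaffold of the particle, had 347, 349 and 336 CPM with DMSO, 311, 311 and 307 with AZ5576, 606, 591 and 565 with THZ531 and 302, 309.8 and 288 with YKL5124. Its THZ531 libraries were all above the others and its AZ5576 and YKL5124 libraries all below DMSO. The log2 fold change of NOP56 was 0.77 ± 0.055 (SE), adjusted p = 4.09e-13 with THZ531, -0.15 ± 0.056 (SE), adjusted p = 0.0312 with AZ5576 and -0.20 ± 0.056 (SE), adjusted p = 0.0105 with YKL5124. The AZ5576 call of NOP56 was lost without library DMSO 1, DMSO 2, AZ5576 1, AZ5576 3 or THZ531 2 (adjusted p = 0.0593 to 0.0795, log2 fold change -0.15 to -0.14). The YKL5124 call of NOP56 was lost without library YKL5124 3 (adjusted p = 0.0645, log2 fold change -0.17). FBL, fibrillarin, the methyltransferase of the particle, had 525, 495 and 512 CPM with DMSO, 627, 535 and 587 with AZ5576, 842, 898 and 912 with THZ531 and 499.5, 572 and 579 with YKL5124. THZ531 libraries of FBL again stood apart, AZ5576 libraries lay just above DMSO, and YKL5124 libraries overlapped DMSO. The log2 fold change of FBL was 0.79 ± 0.064 (SE), adjusted p = 6.02e-12 with THZ531 and 0.19 ± 0.064 (SE), adjusted p = 0.0158 with AZ5576. The AZ5576 call of FBL was lost without library DMSO 2 or AZ5576 1 (adjusted p = 0.0509 to 0.134, log2 fold change 0.14 to 0.17). NOP58, the partner scaffold, had 69.2, 65.3 and 70.1 CPM with DMSO, 73.3, 64.2 and 67.3 with AZ5576, 99.5, 114 and 108 with THZ531 and 62.6, 63.1 and 60.03 with YKL5124. Only with THZ531 was NOP58 called among the comparisons with DMSO, at 0.65 ± 0.070 (SE), adjusted p = 2.52e-09. All 3 box C/D calls with THZ531 held under each alternative run, fly scaling included (0.48 and 0.41 for NOP56 by read total and by fly reads, 0.50 and 0.42 for FBL, and 0.36 and 0.28 for NOP58). The NOP56 row belongs to a transcript with a retained intron whose last exon overlaps the box C/D snoRNA gene SNORD57. Its best protein-coding row held 22083 reads against 46329.

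The box H/ACA proteins rose less with THZ531, and the rise depended on the scaling. DKC1, dyskerin, the pseudouridine synthase, had 93.1, 94.1 and 101 CPM with DMSO, 90.3, 107 and 87.9 with AZ5576, 129, 123 and 119 with THZ531 and 88.4, 84.3 and 88.6 with YKL5124. GAR1 had 47.3, 53.2 and 49.3 CPM with DMSO, 45.5, 54.7 and 41.6 with AZ5576, 60.9, 61.2 and 61.2 with THZ531 and 44.1, 44.3 and 45.2 with YKL5124. For both genes the THZ531 libraries lay above all DMSO libraries, AZ5576 overlapped DMSO, and YKL5124 lay below DMSO without being called. With THZ531, DKC1 changed by 0.36 ± 0.070 (SE), adjusted p = 5.03e-05 and GAR1 by 0.29 ± 0.081 (SE), adjusted p = 0.0023. By read total and by fly reads these were 0.070 and -0.010 for DKC1 and 0.0029 and -0.071 for GAR1, none of them called. NOP10, a small structural protein of the particle, had 90.2, 89.6 and 95.9 CPM with DMSO, 108, 108 and 104 with AZ5576, 107, 107 and 108 with THZ531 and 102, 87.3 and 91.7 with YKL5124. It was higher with AZ5576 (0.22 ± 0.067 (SE), adjusted p = 0.00956) and with THZ531 (0.22 ± 0.067 (SE), adjusted p = 0.00447), but by read total and by fly reads the values of NOP10 were 0.095 and 0.023 with AZ5576 and -0.067 and -0.15 with THZ531, none of them called. NHP2, which binds the guide RNA, had 59.5, 63.6 and 48.8 CPM with DMSO, 69.02, 60.6 and 70.5 with AZ5576, 73.05, 67.5 and 70.1 with THZ531 and 61.5, 59.5 and 62.1 with YKL5124. The low library of NHP2 was DMSO 3, and the AZ5576 libraries overlapped DMSO. NHP2 was called with AZ5576 (0.24 ± 0.083 (SE), adjusted p = 0.0226) and with THZ531 (0.29 ± 0.083 (SE), adjusted p = 0.00273). The AZ5576 call of NHP2 was lost without library DMSO 3, AZ5576 1 or AZ5576 3 (adjusted p = 0.0839 to 0.235, log2 fold change 0.13 to 0.21). Its THZ531 call was lost without library DMSO 3 (adjusted p = 0.0503, log2 fold change 0.19), and its fly-scaled value was negative (0.0036 and -0.058 by read total and by fly reads). The last exon of NHP2 overlaps RMND5B.

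Among the nucleolar chaperones and scaffolds, NPM1 rose with 2 inhibitors. NPM1, nucleophosmin, a histone and ribosome chaperone often mutated in acute myeloid leukaemia, had 752, 723 and 722 CPM with DMSO, 893, 895 and 836 with AZ5576, 1170.2, 1240.0 and 1308 with THZ531 and 784, 805 and 776 with YKL5124. All 3 inhibitor groups lay above DMSO, and THZ531 lay above AZ5576. NPM1 rose by 0.76 ± 0.055 (SE), adjusted p = 5.82e-13 with THZ531 and by 0.26 ± 0.055 (SE), adjusted p = 0.00041 with AZ5576. With YKL5124 the change of NPM1 was 0.11 ± 0.055 (SE), adjusted p = 0.183. NPM1 has processed pseudogenes that could share its reads. NCL, nucleolin, an abundant rRNA-binding protein, had 878, 821 and 893 CPM with DMSO, 962, 935 and 930.1 with AZ5576, 1098, 1151 and 1151 with THZ531 and 822, 818 and 861 with YKL5124. Its THZ531 libraries did not overlap any other group, and it was called with THZ531 (0.39 ± 0.053 (SE), adjusted p = 2.25e-07) but not with AZ5576 (0.13 ± 0.053 (SE), adjusted p = 0.0594). NOLC1, a snoRNP chaperone, had 72.5, 80.7 and 65.5 CPM with DMSO, 72.4, 74.5 and 86.1 with AZ5576, 110.03, 109 and 98.8 with THZ531 and 73.8, 79.8 and 63.9 with YKL5124, with 0.54 ± 0.085 (SE), adjusted p = 2.26e-06 for THZ531. The AZ5576 values of NPM1 by read total and by fly reads were 0.13 and 0.062, the second not called. By read total and by fly reads the THZ531 changes were 0.47 and 0.39 for NPM1, 0.10 and 0.020 for NCL and 0.25 and 0.18 for NOLC1. NPM1 stayed called under both, NOLC1 under the first only, and NCL under neither.

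**Figure D3:**
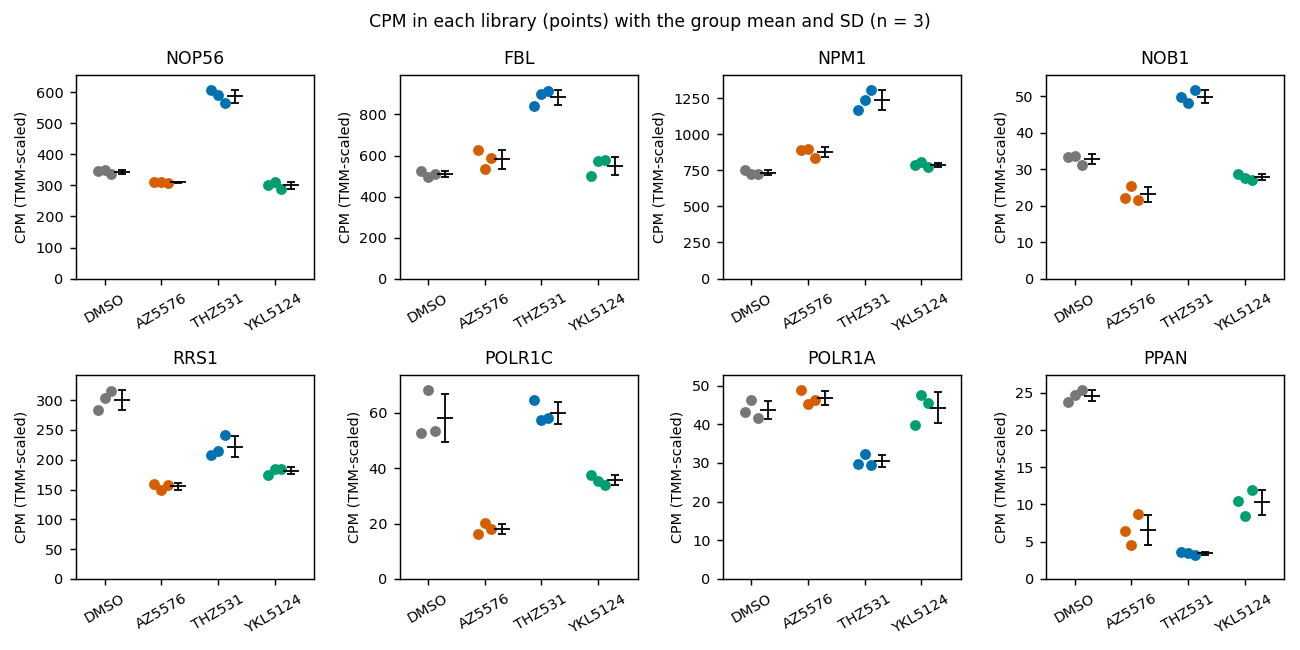
TMM-scaled CPM (vertical axis, from 0) of 8 members in each of the 12 libraries (points, by group), with the group mean and SD beside them. NOP56, FBL, NPM1 and NOB1 are highest with THZ531, RRS1 and PPAN are lower in every inhibitor group, POLR1C is lower with AZ5576 and YKL5124, and POLR1A is lower with THZ531.

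The 6 RNA polymerase I members were lower, not higher, wherever their counted rows were called against DMSO. By read total or fly reads 5 of the 6 were lower with THZ531 (45.9% and 46.5% of all genes were). POLR1C, a subunit shared by RNA polymerases I and III, had 52.7, 68.2 and 53.4 CPM with DMSO, 16.3, 20.01 and 17.9 with AZ5576, 64.6, 57.3 and 58.1 with THZ531 and 37.5, 35.5 and 33.9 with YKL5124. The AZ5576 libraries lay lowest and the YKL5124 libraries next, both clear of DMSO, while THZ531 overlapped DMSO. POLR1C changed by -1.71 ± 0.10 (SE), adjusted p = 3.62e-14 with AZ5576, by -0.70 ± 0.092 (SE), adjusted p = 8.68e-07 with YKL5124 and by 0.049 ± 0.089 (SE), adjusted p = 0.645 with THZ531. By read total and by fly reads the THZ531 value of POLR1C turned to -0.24 and -0.31, both called lower. POLR1B, the subunit that completes the catalytic centre, had 13.6, 14.3 and 13.5 CPM with DMSO, 7.19, 7.33 and 5.09 with AZ5576, 7.94, 8.49 and 8.56 with THZ531 and 8.97, 7.74 and 7.91 with YKL5124. No inhibitor library of POLR1B reached the lowest DMSO library. POLR1B changed by -1.11 ± 0.14 (SE), adjusted p = 1.94e-07 with AZ5576, -0.72 ± 0.14 (SE), adjusted p = 3.25e-05 with THZ531 and -0.75 ± 0.13 (SE), adjusted p = 7.24e-05 with YKL5124. POLR1A, the largest subunit, had 43.1, 46.3 and 41.7 CPM with DMSO, 48.9, 45.4 and 46.3 with AZ5576, 29.8, 32.4 and 29.4 with THZ531 and 39.8, 47.6 and 45.5 with YKL5124. Only the THZ531 libraries of POLR1A stood below the others. POLR1A changed by -0.51 ± 0.085 (SE), adjusted p = 5.72e-06 with THZ531, while the changes were 0.11 ± 0.081 (SE), adjusted p = 0.29 with AZ5576 and 0.029 ± 0.080 (SE), adjusted p = 0.845 with YKL5124.

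RRN3, UBTF and POLR1E were also lower where called. RRN3, the factor that links the polymerase to the promoter, had 64.9, 73.8 and 62.2 CPM with DMSO, 43.5, 51.3 and 50.2 with AZ5576, 73.96, 74.7 and 71.6 with THZ531 and 82.2, 64.5 and 62.4 with YKL5124. Its AZ5576 libraries lay below all others, with 82.2 CPM in YKL5124 library 1 the highest value. RRN3 changed by -0.48 ± 0.092 (SE), adjusted p = 0.000105 with AZ5576, 0.13 ± 0.088 (SE), adjusted p = 0.185 with THZ531 and 0.053 ± 0.088 (SE), adjusted p = 0.733 with YKL5124. Pseudogene copies of RRN3 could share its reads. UBTF, which bends and opens ribosomal DNA, had 225, 219 and 219 CPM with DMSO, 224, 205 and 209 with AZ5576, 194, 212 and 200.01 with THZ531 and 197, 189.6 and 201 with YKL5124. It was called with YKL5124 alone (-0.18 ± 0.059 (SE), adjusted p = 0.0337), a call lost without library DMSO 1, DMSO 3, THZ531 1, THZ531 2, THZ531 3, YKL5124 1 or YKL5124 2 (adjusted p = 0.0524 to 0.136, log2 fold change -0.18 to -0.15). POLR1E, a subunit of the elongation module, had 62.7, 68.2 and 57.9 CPM with DMSO, 55.5, 50.5 and 53.3 with AZ5576, 60.2, 57.1 and 58.6 with THZ531 and 47.6, 49.8 and 52.8 with YKL5124. POLR1E was lower with AZ5576 (-0.23 ± 0.076 (SE), adjusted p = 0.0135) and YKL5124 (-0.32 ± 0.075 (SE), adjusted p = 0.00187). The AZ5576 call of POLR1E was lost without library DMSO 2 (adjusted p = 0.0791, log2 fold change -0.18).

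Small subunit factors called under TMM scaling were higher with THZ531 and lower with AZ5576 and YKL5124, though with fly reads none was higher with THZ531. NOB1, the nuclease that finishes the small subunit rRNA, had 33.5, 33.8 and 31.1 CPM with DMSO, 22.2, 25.6 and 21.6 with AZ5576, 49.7, 48.3 and 51.9 with THZ531 and 28.7, 27.5 and 27.1 with YKL5124. The 4 groups of NOB1 did not overlap, in the order THZ531, DMSO, YKL5124 and AZ5576 from high to low. NOB1 changed by 0.61 ± 0.080 (SE), adjusted p = 1.18e-07 with THZ531, -0.53 ± 0.087 (SE), adjusted p = 1.49e-05 with AZ5576 and -0.24 ± 0.084 (SE), adjusted p = 0.0388 with YKL5124. The YKL5124 call of NOB1 was lost without library DMSO 1, DMSO 2, THZ531 1, THZ531 2, THZ531 3, YKL5124 2 or YKL5124 3 (adjusted p = 0.0567 to 0.119, log2 fold change -0.24 to -0.22). The THZ531 rise of NOB1 was 0.32 and 0.25 by read total and by fly reads, the second not called. UTP4, of the early-binding tUTP complex, had 25.1, 25.5 and 25.5 CPM with DMSO, 27.2, 24.96 and 26.5 with AZ5576, 40.2, 37.2 and 40.97 with THZ531 and 24.9, 23.6 and 28.6 with YKL5124. UTP4 was called with THZ531 alone (0.64 ± 0.087 (SE), adjusted p = 2.33e-07), and its values by read total and by fly reads were 0.35 and 0.27, the second not called.

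WDR43, of the same early complex as UTP4, had 39.2, 38.3 and 36.5 CPM with DMSO, 25.1, 26.7 and 26.9 with AZ5576, 31.5, 33.4 and 36.9 with THZ531 and 28.98, 26.9 and 25.1 with YKL5124. The DMSO and THZ531 libraries of WDR43 overlapped and the other 2 inhibitors lay below both. WDR43 changed by -0.54 ± 0.087 (SE), adjusted p = 1.04e-05 with AZ5576, -0.50 ± 0.086 (SE), adjusted p = 5.44e-05 with YKL5124 and -0.16 ± 0.085 (SE), adjusted p = 0.103 with THZ531, where read totals and fly reads gave -0.45 and -0.52, both called lower. BYSL, which exports with the small subunit precursor, had 65.6, 56.8 and 66.7 CPM with DMSO, 50.6, 42.8 and 48.8 with AZ5576, 64.6, 69.9 and 70.8 with THZ531 and 40.5, 51.4 and 49.9 with YKL5124. It was lower with AZ5576 (-0.40 ± 0.087 (SE), adjusted p = 0.000504) and YKL5124 (-0.41 ± 0.086 (SE), adjusted p = 0.000647). UTP15, also of the tUTP complex, was called with AZ5576 (-0.32 ± 0.12 (SE), adjusted p = 0.0286), a call lost without library DMSO 2, DMSO 3, AZ5576 2 or AZ5576 3 (adjusted p = 0.0528 to 0.106, log2 fold change -0.32 to -0.28).

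The other small subunit factors were called with THZ531 or not at all. With THZ531, NOC4L changed by 0.49 ± 0.10 (SE), adjusted p = 9.4e-05, RRP12 by 0.35 ± 0.078 (SE), adjusted p = 0.000287 and NOP14 by 0.23 ± 0.066 (SE), adjusted p = 0.00351. The call of NOP14 was lost without library THZ531 3 (adjusted p = 0.0611, log2 fold change 0.17). By read total and by fly reads these changes were 0.20 and 0.13 for NOC4L, 0.057 and -0.016 for RRP12 and -0.062 and -0.14 for NOP14, none of them called. RRP9, which binds the U3 snoRNA, was not called against DMSO (0.26 ± 0.14 (SE), adjusted p = 0.0954 with THZ531). UTP20 had the fewest reads of the 40 members, at 2.59, 2.47 and 3.695 CPM with DMSO, 3.91, 4.75 and 3.59 with AZ5576, 2.47, 2.87 and 2.78 with THZ531 and 4.12, 3.54 and 2.91 with YKL5124. Its SE of 0.22 to 0.24 was the widest, and its largest value against DMSO was 0.43 ± 0.22 (SE), adjusted p = 0.114 with AZ5576. NOP14 overlaps NOP14-AS1 in its last exon.

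The deepest fall of the 40 members with each inhibitor was that of PPAN, a large subunit factor. PPAN, a peter pan homologue needed for large subunit maturation, had 23.8, 24.6 and 25.3 CPM with DMSO, 6.47, 4.56 and 8.68 with AZ5576, 3.65, 3.42 and 3.21 with THZ531 and 10.4, 8.48 and 11.9 with YKL5124. Its DMSO libraries stood above every inhibitor library, THZ531 lay lowest, and AZ5576 library 3 overlapped YKL5124. PPAN changed by -2.84 ± 0.17 (SE), adjusted p = 4.12e-15 with THZ531, -1.82 ± 0.14 (SE), adjusted p = 1.32e-11 with AZ5576 and -1.25 ± 0.13 (SE), adjusted p = 1.59e-08 with YKL5124, which are 7.18-fold, 3.53-fold and 2.38-fold lower. The row of PPAN ends in an exon shared with the downstream gene P2RY11 and their read-through transcript on the same strand. All 3 rows of PPAN that were tested were lower in each of the 3 comparisons. Their last exons overlap each other and the read-through transcript, so they are not separate observations. RRS1, a single-exon gene whose protein recruits the free ribosomal proteins and small rRNA to the precursor, had 283, 303 and 316 CPM with DMSO, 159.7, 149 and 158 with AZ5576, 208, 215 and 242 with THZ531 and 175, 185 and 185 with YKL5124. The 3 inhibitor groups were all below DMSO, with AZ5576 lowest and THZ531 highest among them. RRS1 changed by -0.95 ± 0.065 (SE), adjusted p = 6.81e-13 with AZ5576, -0.73 ± 0.064 (SE), adjusted p = 4.67e-10 with YKL5124 and -0.44 ± 0.064 (SE), adjusted p = 6.63e-07 with THZ531. RRP1 was lower with each inhibitor, by -0.37 ± 0.088 (SE), adjusted p = 0.00105 with AZ5576, -0.34 ± 0.088 (SE), adjusted p = 0.00135 with THZ531 and -0.39 ± 0.087 (SE), adjusted p = 0.0014 with YKL5124.

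Among large subunit factors, 3 were called in opposite directions with THZ531 and AZ5576 under TMM scaling, though NOP16 turned to -0.017 by read total and -0.095 by fly reads with THZ531. BRIX1 had 60.9, 65.8 and 58.9 CPM with DMSO, 38.5, 59.8 and 39.6 with AZ5576, 90.8, 83.4 and 91.2 with THZ531 and 42.2, 38.7 and 30.4 with YKL5124. Its THZ531 libraries were above DMSO and its YKL5124 libraries below, while AZ5576 library 2 reached DMSO and AZ5576 libraries 1 and 3 did not. BRIX1 changed by 0.52 ± 0.11 (SE), adjusted p = 9.46e-05 with THZ531, -0.48 ± 0.11 (SE), adjusted p = 0.000949 with AZ5576 and -0.75 ± 0.11 (SE), adjusted p = 8.42e-06 with YKL5124. NOP16 had 102, 94.98 and 104 CPM with DMSO, 71.2, 83.01 and 71.04 with AZ5576, 115, 123 and 125 with THZ531 and 80.5, 78.7 and 79.9 with YKL5124. NOP16 changed by 0.27 ± 0.068 (SE), adjusted p = 0.000821 with THZ531, -0.43 ± 0.070 (SE), adjusted p = 1.06e-05 with AZ5576 and -0.33 ± 0.069 (SE), adjusted p = 0.000577 with YKL5124. NOP2, an rRNA cytosine methyltransferase, had 15.6, 16.1 and 16.04 CPM with DMSO, 10.7, 15.7 and 10.6 with AZ5576, 22.1, 22.6 and 20.2 with THZ531 and 12.6, 15.3 and 14.9 with YKL5124. AZ5576 library 2 of NOP2 lay with DMSO and the other AZ5576 libraries below. NOP2 changed by 0.45 ± 0.12 (SE), adjusted p = 0.00136 with THZ531 and -0.44 ± 0.13 (SE), adjusted p = 0.00594 with AZ5576, the second call being lost without library AZ5576 1 or AZ5576 3 (adjusted p = 0.0577 to 0.0577, log2 fold change -0.36 to -0.35). By read total and by fly reads the THZ531 values were 0.23 and 0.16 for BRIX1, -0.017 and -0.095 for NOP16 and 0.15 and 0.079 for NOP2, none of them called.

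The members of the PeBoW complex, PES1, BOP1 and WDR12, differed in their calls. BOP1, its bridging member, had 73.95, 62.6 and 70.2 CPM with DMSO, 90.3, 68.2 and 82.6 with AZ5576, 86.2, 94.7 and 89.7 with THZ531 and 67.2, 78.5 and 84.4 with YKL5124. BOP1 was higher with THZ531 (0.39 ± 0.088 (SE), adjusted p = 0.000338) and AZ5576 (0.24 ± 0.088 (SE), adjusted p = 0.0304). The AZ5576 call of BOP1 was lost without library DMSO 2, DMSO 3, AZ5576 1 or AZ5576 3 (adjusted p = 0.0571 to 0.258, log2 fold change 0.14 to 0.25), and the THZ531 values by read total and by fly reads were 0.095 and 0.018, not called. WDR12 had 57.9, 57.01 and 58.3 CPM with DMSO, 50.2, 54.7 and 56.6 with AZ5576, 37.9, 43.7 and 41.5 with THZ531 and 49.8, 56.3 and 51.4 with YKL5124. Its THZ531 libraries lay below all others, and WDR12 was called only there against DMSO (-0.49 ± 0.079 (SE), adjusted p = 3.19e-06). PES1 had 177, 167 and 177 CPM with DMSO, 180.4, 158 and 160.4 with AZ5576, 163, 203 and 208 with THZ531 and 156, 195 and 179 with YKL5124, with overlap of every inhibitor group and DMSO, and was not called against DMSO (0.14 ± 0.080 (SE), adjusted p = 0.129 with THZ531).

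GNL3, NIP7 and NOC2L complete the large subunit group. GNL3, nucleostemin, a nucleolar GTPase, changed by -0.23 ± 0.079 (SE), adjusted p = 0.0128 with THZ531, -0.26 ± 0.079 (SE), adjusted p = 0.00904 with AZ5576 and -0.22 ± 0.077 (SE), adjusted p = 0.0387 with YKL5124. The AZ5576 call of GNL3 was lost without library AZ5576 1 (adjusted p = 0.074, log2 fold change -0.21), and its YKL5124 call was lost without library DMSO 1, DMSO 2, DMSO 3, THZ531 1, THZ531 2, THZ531 3, YKL5124 1 or YKL5124 3 (adjusted p = 0.0526 to 0.199, log2 fold change -0.23 to -0.17). NIP7 was lower with THZ531 (-0.25 ± 0.098 (SE), adjusted p = 0.0254), a call lost without library DMSO 3 or THZ531 2 (adjusted p = 0.0668 to 0.0736, log2 fold change -0.24 to -0.23). NOC2L, whose last exon overlaps SAMD11, was higher with THZ531 (0.44 ± 0.10 (SE), adjusted p = 0.000411), with 0.15 and 0.074 by read total and by fly reads.

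Of the nucleolar regulators, DDX21, a helicase that acts on both rRNA and RNA polymerase II genes, had 381, 386 and 403 CPM with DMSO, 421, 410.3 and 444 with AZ5576, 468, 466 and 491 with THZ531 and 357, 375 and 364 with YKL5124. Its THZ531 libraries were above all others. DDX21 changed by 0.28 ± 0.056 (SE), adjusted p = 5.52e-05 with THZ531, but the values by read total and by fly reads were -0.0062 and -0.084. MYBBP1A, a nucleolar Myb-binding protein, had 36.4, 45.2 and 40.2 CPM with DMSO, 40.6, 42.2 and 39.8 with AZ5576, 41.1, 37.7 and 37.3 with THZ531 and 37.9, 35.3 and 37.9 with YKL5124. It was called in none of the 6 comparisons under TMM scaling, while read totals and fly reads gave -0.36 and -0.43 with THZ531, both called lower, and its last exon overlaps SPNS2.

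**Figure D4:**
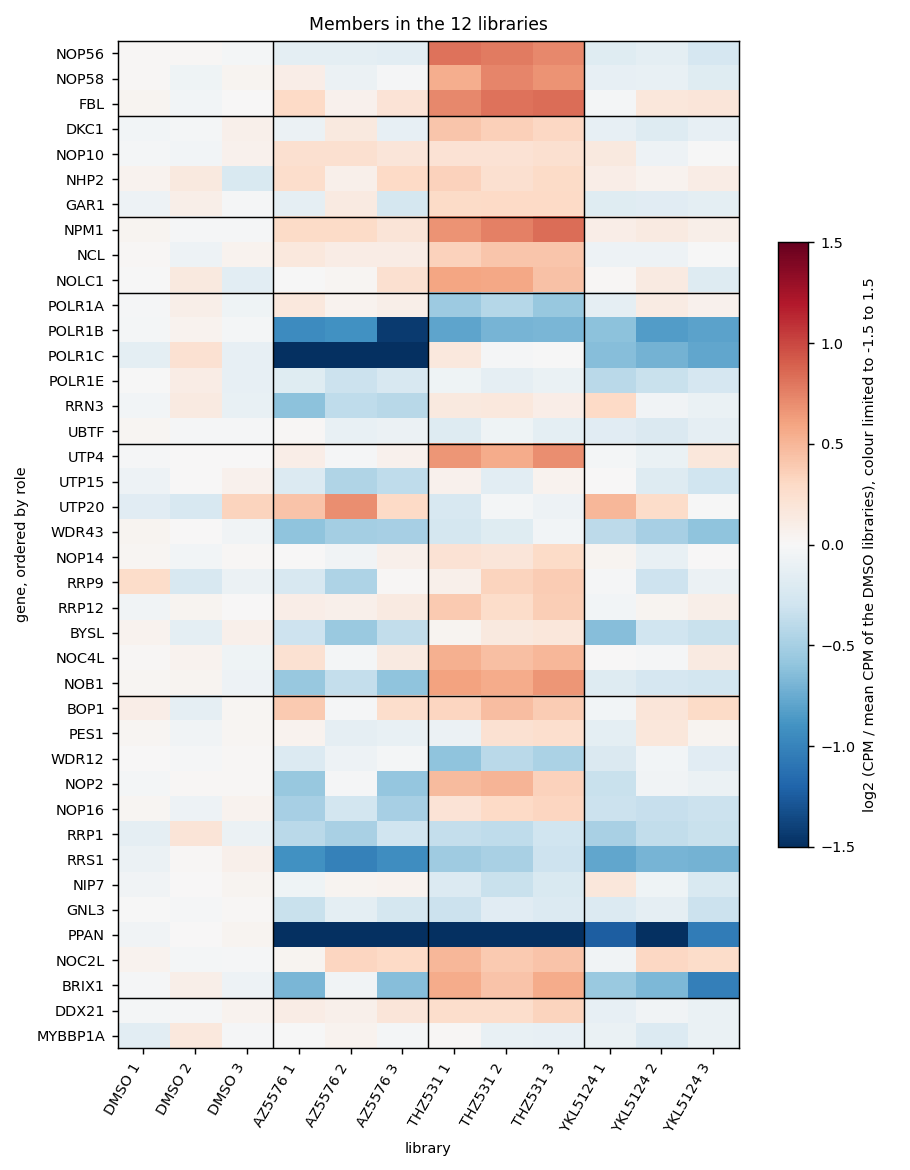
Log2 ratio of CPM to the mean of the DMSO libraries (colour, limited to -1.5 to 1.5) for the 40 members (rows, grouped by role) in the 12 libraries (columns). The THZ531 columns are red for NOP56, FBL, NPM1 and NOP58, which stayed higher under fly scaling too, and under TMM scaling the rows of PPAN, POLR1B and RRS1 are blue in all 9 inhibitor columns.

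The inhibitors were then compared with each other in the same fit over all 12 libraries. Between AZ5576 and THZ531, 4 members were higher with AZ5576 (27.8% of all genes) and 26 were lower (27.1%), with a median of -0.33 against 0.014 for all genes. POLR1C (-1.75 ± 0.10 (SE), adjusted p = 7.11e-15), NOB1 (-1.14 ± 0.087 (SE), adjusted p = 1.94e-12) and BRIX1 (-0.999 ± 0.11 (SE), adjusted p = 7.23e-09) were the furthest below THZ531. PPAN (1.02 ± 0.21 (SE), adjusted p = 9.78e-05), POLR1A (0.62 ± 0.087 (SE), adjusted p = 4.04e-07) and WDR12 (0.39 ± 0.081 (SE), adjusted p = 0.000159) were the furthest above. Between YKL5124 and THZ531, 3 members were higher with YKL5124 (30.5% of all genes) and 27 were lower (30.5%), with a median of -0.30 against -0.011. BRIX1 (-1.27 ± 0.11 (SE), adjusted p = 5.52e-11), NOP56 (-0.97 ± 0.056 (SE), adjusted p = 2.85e-15) and NOB1 (-0.85 ± 0.083 (SE), adjusted p = 4.14e-10) were lowest relative to THZ531, and PPAN (1.59 ± 0.19 (SE), adjusted p = 2.41e-08), POLR1A (0.54 ± 0.086 (SE), adjusted p = 3.15e-06) and WDR12 (0.35 ± 0.080 (SE), adjusted p = 0.000337) were highest. These 2 comparisons share the THZ531 libraries. For AZ5576 against THZ531 the members were 8 higher (37.4% of all genes) and 17 lower (18.2%) by read total, and 5 (34.2%) and 13 (14.5%) by fly reads. For YKL5124 against THZ531 they were 9 higher (44.1% of all genes) and 14 lower (14.9%) by read total, and 6 (41.8%) and 9 (10.6%) by fly reads. The WDR12 calls were lost when the rows of a gene were summed, with WDR12 0.14 higher with AZ5576 and 0.10 higher with YKL5124 than with THZ531 (adjusted p = 0.134 and 0.241).

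The third pair was AZ5576 and YKL5124. Between them, 3 members were higher with AZ5576 (6.23% of all genes) and 5 were lower (9.6%), with a median of 0.046 against 0.0098. The other scalings gave 0 higher (1.72% of all genes) and 7 lower (15.1%) by read total, and 0 (0.929%) and 5 (11.5%) by fly reads. POLR1C was lower with AZ5576 (-1.001 ± 0.11 (SE), adjusted p = 6.17e-08), as were PPAN (-0.57 ± 0.16 (SE), adjusted p = 0.0156) and RRN3 (-0.53 ± 0.093 (SE), adjusted p = 0.000129). NOB1 and RRS1 were the other members called lower, by -0.29 ± 0.091 (SE), adjusted p = 0.0289 and -0.22 ± 0.066 (SE), adjusted p = 0.0218. DDX21 (0.22 ± 0.056 (SE), adjusted p = 0.00681), NOP10 (0.19 ± 0.067 (SE), adjusted p = 0.0483) and NCL (0.18 ± 0.054 (SE), adjusted p = 0.022) were higher. The NOP10 call was lost in 21 of 24 alternatives, RLE scaling, DESeq2 and the replicate block among them, and without library DMSO 1, DMSO 3, AZ5576 1, AZ5576 2, AZ5576 3, THZ531 1, THZ531 2, THZ531 3, YKL5124 2 or YKL5124 3 (adjusted p = 0.0556 to 0.229, log2 fold change 0.15 to 0.22). The NCL call was lost without library AZ5576 1, YKL5124 1 or YKL5124 2 (adjusted p = 0.0616 to 0.0886, log2 fold change 0.16 to 0.17). By read total and by fly reads the values were 0.12 and 0.095 for DDX21, 0.090 and 0.069 for NOP10 and 0.075 and 0.050 for NCL, none of them called. Of the lower members, the call of PPAN was lost without library AZ5576 1, AZ5576 2 or YKL5124 3 (adjusted p = 0.05 to 0.123, log2 fold change -0.50 to -0.43). That of NOB1 was lost without library AZ5576 1, AZ5576 3, YKL5124 1, YKL5124 2 or YKL5124 3 (adjusted p = 0.0531 to 0.137, log2 fold change -0.30 to -0.24). That of RRS1 was lost without library AZ5576 2, YKL5124 2 or YKL5124 3 (adjusted p = 0.0525 to 0.0801, log2 fold change -0.20 to -0.19). The calls of POLR1C and RRN3 held in all 24 alternatives. The count of members higher with AZ5576 was 1 without library AZ5576 1 or YKL5124 2, and the count lower was 2 without library YKL5124 3 and 3 without library AZ5576 1 or YKL5124 2.

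Other genes of ribosome biogenesis were counted the same way over a list of 108, of which 107 had a row and were tested. With AZ5576, 10 were higher (18.6% of all genes were) and 39 lower (23.1%). With THZ531, 40 were higher (30.4%) and 28 lower (32.9%). With YKL5124, 1 was higher (TBL3, 1.22 ± 0.18 (SE), adjusted p = 7.24e-06, named after its value was seen), beside 7.25% of all genes, and 26 were lower (13.5%). TBL3 averaged less than 10 CPM in both groups, and was not called when rows were summed or picked by DMSO total. The number higher with AZ5576 was 6 without library AZ5576 1. The list's medians were -0.12, 0.034 and -0.11, each on the log2 scale. By fly reads the counts were 0 higher with AZ5576 (3.27% of all genes), and 8 higher (7.05%) and 57 lower (46.5%) with THZ531. IMP3, a U3 snoRNP protein, had 216, 244 and 231 CPM with DMSO, 108, 102 and 117 with AZ5576, 146, 136 and 134 with THZ531 and 133, 143 and 141 with YKL5124, and was lower with AZ5576 (-1.07 ± 0.067 (SE), adjusted p = 6.87e-14). CD3EAP, a polymerase I subunit also named POLR1G, was lower with AZ5576 (-1.06 ± 0.12 (SE), adjusted p = 1.06e-08) and YKL5124 (-0.87 ± 0.11 (SE), adjusted p = 6.29e-07). TAF1D, of the promoter selectivity factor of RNA polymerase I, had 40.2, 44.1 and 38.8 CPM with DMSO, 21.9, 25.8 and 26.9 with AZ5576, 53.6, 51.9 and 52.6 with THZ531 and 15.2, 11.7 and 11.7 with YKL5124, and its largest change was with YKL5124 (-1.69 ± 0.10 (SE), adjusted p = 1.76e-13). NMD3, the export adaptor of the large subunit, had 63.7, 64.1 and 62.6 CPM with DMSO, 45.2, 45.8 and 50.1 with AZ5576, 132, 133 and 127 with THZ531 and 50.4, 50.05 and 44.6 with YKL5124. Its THZ531 libraries lay above DMSO (1.04 ± 0.068 (SE), adjusted p = 5.63e-14) and the other inhibitors below. RRP7A (-1.11 ± 0.081 (SE), adjusted p = 5.8e-13) and SURF6 (-1.05 ± 0.077 (SE), adjusted p = 8.08e-13) had the largest falls with THZ531 among listed genes averaging 10 CPM or more in a compared group, and DCAF13 (0.89 ± 0.082 (SE), adjusted p = 1.08e-10) and SBDS (0.84 ± 0.15 (SE), adjusted p = 9.21e-06) followed NMD3 among the rises. With AZ5576, URB2 also fell (-1.05 ± 0.14 (SE), adjusted p = 6.17e-07), and GTPBP4 (0.41 ± 0.068 (SE), adjusted p = 1.83e-05), POLR1D (0.31 ± 0.095 (SE), adjusted p = 0.00827) and NSA2 (0.30 ± 0.087 (SE), adjusted p = 0.00547) rose.

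Gene structure was set beside the changes. Span was taken from the protein-coding transcript with most reads, which was not the counted transcript in 14 members. It was at least 30 kb in 9 members and less in 31. With THZ531, 3 of the 9 longer members were higher and 3 lower (median -0.11), against 18 higher and 5 lower of the 31 shorter ones (median 0.27), beside 30.4% and 32.9% of all genes. Over all 40, Spearman's rho between span and log2 fold change was -0.12 with THZ531, 0.18 with AZ5576 and 0.25 with YKL5124, given as a description over genes that share the same libraries. Of the 8 members with snoRNA genes inside their bounds, 25 snoRNA genes in all, 4 were higher and 2 lower with THZ531, 0 and 5 with AZ5576, and 0 and 5 with YKL5124. Of the other 32 members, 17 were higher and 6 lower with THZ531, 5 and 11 with AZ5576, and 0 and 9 with YKL5124. Of all genes, 30.4% were higher and 32.9% lower with THZ531, 18.6% and 23.1% with AZ5576, and 7.25% and 13.5% with YKL5124. The hosts are NOP56, NOP58, DKC1, NCL, POLR1C, WDR43, GNL3 and PPAN.

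The rows of 1 gene did not all move together. The rows are stretches of annotated transcripts and several overlap. Tested on their own, 182 rows of members gave 93 higher (26.2% of all 46431 rows tested) and 19 lower (26.7%) with THZ531. With AZ5576 there were 11 higher (12.4%) and 50 lower (16.8%), and with YKL5124 1 higher (4.01%) and 37 lower (8.56%). Rows were tested under TMM scaling alone, and the counts include rows that passed the filter through a single group. The rows named next were chosen after their values had been seen. POLR1C (ENSG00000171453, GRCh38, plus strand) was counted above through ENST00000481352, a retained-intron row with the last exon chr6:43520932-43521479. Of its 4 rows tested, 3 were lower and 1 higher with AZ5576 and with YKL5124. The last exons of the 3 lower rows overlap each other, so those rows are not separate observations. The 2 protein-coding transcripts among these 4 rows have different last exons. The nearer one, ENST00000372344, ends in the exon chr6:43521182-43521506. It had 45.4, 57.2 and 45.4 CPM with DMSO, 13.8, 17.4 and 15.5 with AZ5576, 53.9, 49.1 and 48.1 with THZ531 and 32.01, 30.7 and 28.6 with YKL5124, and changed by -1.70 ± 0.11 (SE), adjusted p = 7.9e-15 with AZ5576 and -0.70 ± 0.094 (SE), adjusted p = 1.12e-06 with YKL5124. The farther one, ENST00000304004, ends in chr6:43529249-43529585 and shares no base of its last exon with the first. Its row had 4.298, 5.04 and 5.504 CPM with DMSO, 10.8, 8.32 and 9.93 with AZ5576, 4.95, 4.74 and 4.599 with THZ531 and 8.97, 8.76 and 7.24 with YKL5124. With AZ5576 all 3 libraries and with YKL5124 all 3 libraries of the farther row lay above DMSO, at 0.99 ± 0.16 (SE), adjusted p = 1e-05 and 0.74 ± 0.16 (SE), adjusted p = 0.00151. With THZ531 neither row was called (-0.018 ± 0.091 (SE), adjusted p = 0.885 for the nearer and -0.11 ± 0.18 (SE), adjusted p = 0.66 for the farther).

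The tested rows of WDR12 and POLR1A, 3 each, also differed with THZ531, in no single order of their ends. WDR12 (chromosome 2, minus strand) was counted through ENST00000261015, whose last exon is chr2:202874782-202880937. That row changed by -0.54 ± 0.082 (SE), adjusted p = 9.93e-07. The retained-intron transcript ENST00000467777 ends inside the same exon, at 202880601, and had 9.48, 11.04 and 11.4 CPM with DMSO, 8.79, 10.9 and 10.9 with AZ5576, 11.8, 14.8 and 15.1 with THZ531 and 9.09, 9.88 and 10.9 with YKL5124. Its change with THZ531 was 0.34 ± 0.14 (SE), adjusted p = 0.0328. The third row, ENST00000478869, ends nearer still, at 202895998, and was not called (-0.065 ± 0.12 (SE), adjusted p = 0.667). POLR1A, also on chromosome 2, minus strand, was counted through ENST00000263857, with the last exon chr2:86020216-86027523. That row changed by -0.56 ± 0.089 (SE), adjusted p = 1.92e-06. ENST00000409681 ends nearer, at 86026328, and had 19.6, 17.99 and 19.03 CPM with DMSO, 19.3, 17.4 and 17.4 with AZ5576, 18.1, 21.1 and 19.6 with THZ531 and 15.4, 19.1 and 18.7 with YKL5124. Its change was 0.0016 ± 0.11 (SE), adjusted p = 0.992, with overlap of all groups. The third row, ENST00000462078, ends nearer still, at 86039325, and had 14, 14 and 14 reads with DMSO, 18, 9 and 17 with AZ5576, 3, 3 and 6 with THZ531 and 13, 15 and 14 with YKL5124. It was lower with THZ531 (-1.35 ± 0.44 (SE), adjusted p = 0.0102).

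**Figure D5:**
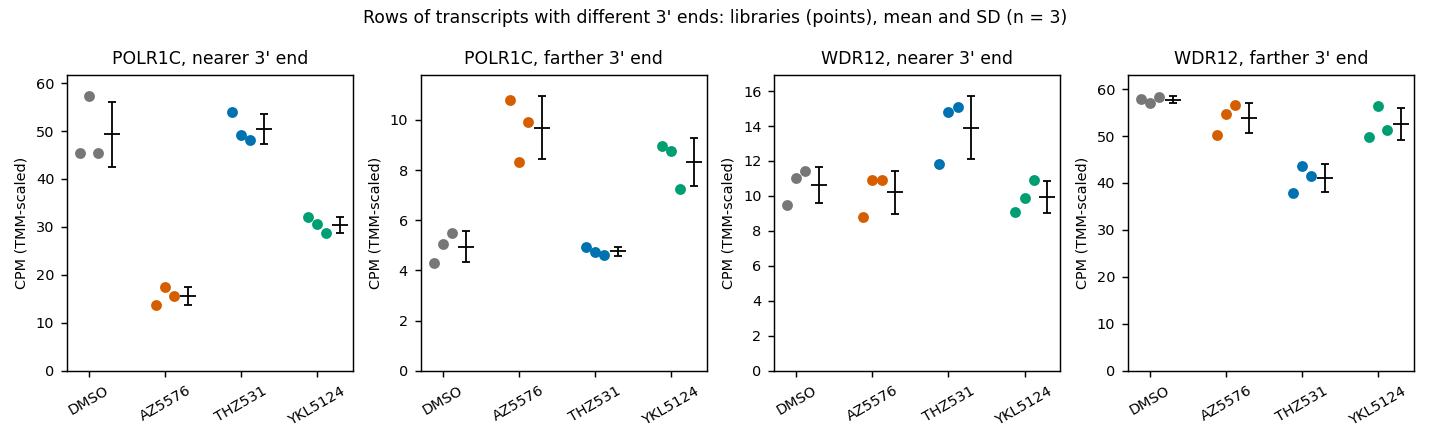
TMM-scaled CPM (vertical axes, from 0) in the 12 libraries (points) for rows of POLR1C and WDR12 transcripts that end at a nearer or a farther place, with the group mean and SD. The nearer POLR1C row is lowest with AZ5576 (13.8 to 17.4 CPM) where the farther row is highest, and the farther WDR12 row is lowest with THZ531.

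Rows with retained introns or internal ends also differed from the main row in 3 other members. For FBL, the retained-intron row ENST00000599159 had 59, 39 and 39 reads with DMSO, 24, 12 and 25 with AZ5576, 64, 100 and 80 with THZ531 and 9, 11 and 8 with YKL5124. It changed by -0.85 ± 0.24 (SE), adjusted p = 0.00633 with AZ5576, 1.27 ± 0.19 (SE), adjusted p = 5.61e-07 with THZ531 and -2.03 ± 0.28 (SE), adjusted p = 1.6e-06 with YKL5124, whereas the main FBL row was not lower in any of the 3 comparisons. Of 9 rows of FBL tested, 7 were higher and 0 lower with THZ531, 4 and 1 with AZ5576, and 0 and 1 with YKL5124. For WDR43, the retained-intron row ENST00000466067 had 86, 60 and 59 reads with DMSO, 46, 17 and 47 with AZ5576, 59, 82 and 84 with THZ531 and 20, 35 and 42 with YKL5124. With THZ531 it was higher (0.57 ± 0.17 (SE), adjusted p = 0.0046) while the row of the full-length transcript ENST00000407426 was lower (-0.21 ± 0.089 (SE), adjusted p = 0.0453), and the third row was not called (0.29 ± 0.26 (SE), adjusted p = 0.381). The full-length row is the main WDR43 row, and in the fit of 1 row per gene it was not called with THZ531. For POLR1B, counted above through ENST00000537335, the row of ENST00000498054, which ends in chr2:112559293-112559395 and so short of the main last exon, had 0, 0 and 1 reads with DMSO, 0, 0 and 0 with AZ5576, 10, 15 and 15 with THZ531 and 1, 1 and 0 with YKL5124. A row of the transcript ENST00000333990, 1 of its 3 rows tested, had 0, 1 and 1 reads with DMSO, 0, 0 and 0 with AZ5576, 24, 37 and 31 with THZ531 and 1, 1 and 1 with YKL5124. Nearly all reads of both POLR1B rows came from THZ531 libraries, and since both passed the count filter through that group, no test or fold is given. Whether these rows come from spliced, unspliced or early-ended RNA was not tested.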

How the data were processed

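The deposited table gives whole-number read counts per transcript stretch, which the authors made from 3′ end reads. Demultiplexing used bcl2fastq 2.17.1.14 and trimming Trim Galore 0.6.5 on hg38 and dm6, per the submitters' processing notes, which also name edgeR 3.32.1. The sources used here do not name the aligner, the counting tool, strand use or the handling of multiply mapped reads. Columns headed UT were taken as the DMSO libraries.

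For each of 57002 human genes named through GENCODE 29 (GRCh38), the row with the highest total over 12 libraries was kept. Genes with counts identical to another gene's (94, at a total of 120 or more) were dropped, and 5197 rows without a gene name, 0.655% to 0.719% of counts, were left out. Of the members' rows, 26 belong to protein-coding transcripts and 14 to other types. A quasi-likelihood model was fitted over all 12 libraries in edgeR 4.0.16 (R 4.3.3) with TMM factors and filterByExpr at a minimum count of 10, and p-values were Benjamini-Hochberg adjusted over 15831 genes with a threshold of 0.05. Each SE was obtained from the log2 fold change and the square root of its F statistic. The fitting was tested on simulated data. The alternatives were RLE, upper-quartile, read-total and fly scaling, filters, 6-library fits, a replicate block, DESeq2 1.42.0, other row choices and leaving out each library. Python 3.11.15, pandas 2.3.3 and matplotlib 3.10.9 made the tables and figures. The scaling by fly reads uses the spike-in counts of 38374 rows.

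The members and lists were chosen with earlier results of these data known. Given with per-library values were, against DMSO, the 2 members of each role with the smallest adjusted p and every called member with a log2 fold change of at least 1 in size. Also named were the 3 largest called differences each way between inhibitors, and of the pathway list the 3 largest each way with a mean of at least 10 CPM. Other members are described because all 40 may be named. Results for some marker genes are not reported here.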

Additional observations from a re-analysis of the deposited data

How the results depend on the processing

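Of the calls against DMSO, 11 of 21 with AZ5576, 11 of 29 with THZ531 and 10 of 14 with YKL5124 held in all 24 alternatives, as did 15 of 30 between AZ5576 and THZ531, 11 of 30 between YKL5124 and THZ531 and 2 of 8 between AZ5576 and YKL5124. Scalings that use read totals or fly reads lowered the THZ531 values against the other groups, relative to TMM. The all-gene median of THZ531 against DMSO was -0.29 and -0.37 under them and -0.0024 under TMM. The cause of these and the other changes was not tested. Fly scaling gave these numbers of members: AZ5576 against DMSO 0 higher, THZ531 against DMSO 4 higher and 14 lower, AZ5576 against THZ531 13 lower, YKL5124 against THZ531 6 higher and 9 lower, and AZ5576 against YKL5124 0 higher. For the pathway list it gave 0 higher with AZ5576, 8 higher and 57 lower with THZ531, and 24 lower for AZ5576 against THZ531. It also gave 34 higher and 19 lower for YKL5124 against THZ531, and 2 higher for AZ5576 against YKL5124. Of all genes under fly scaling, 3.27% were higher with AZ5576, and 7.05% were higher and 46.5% lower with THZ531. Against THZ531, 14.5% were lower with AZ5576, and 41.8% were higher and 10.6% lower with YKL5124. For AZ5576 against YKL5124, 0.929% were higher. Read totals gave 1 member higher with AZ5576, 7 higher and 14 lower with THZ531, 8 higher and 17 lower for AZ5576 against THZ531, 9 higher and 14 lower for YKL5124 against THZ531, and 0 higher for AZ5576 against YKL5124. For the pathway list they gave 2 higher with AZ5576, and 22 higher and 58 lower with THZ531. They also gave 42 higher and 25 lower for YKL5124 against THZ531, and 27 lower for AZ5576 against YKL5124. Of all genes by read total, 8.38% were higher with AZ5576, and 13.9% were higher and 45.9% lower with THZ531. Against THZ531, 37.4% were higher and 18.2% lower with AZ5576, and 44.1% higher and 14.9% lower with YKL5124. For AZ5576 against YKL5124, 1.72% were higher and 15.1% lower. Upper-quartile scaling gave 8 members higher with AZ5576 and 1 with YKL5124, and 4 pathway genes higher with YKL5124. Of 15831 genes tested, that scaling called 3762 higher with AZ5576 and 2020 higher with YKL5124. Summing rows gave 3 members higher with AZ5576, 2 higher for AZ5576 against THZ531 and 3 lower for AZ5576 against YKL5124. In the pathway list it gave 2 higher for AZ5576 against YKL5124 and 0 higher with YKL5124. Of 16746 genes tested on summed rows, 2611 were higher with AZ5576, 869 with YKL5124 and 4369 for AZ5576 against THZ531. For AZ5576 against YKL5124, 775 were higher and 1347 lower. The row with the highest DMSO total gave 0 pathway genes higher with YKL5124, where 1138 of 15815 genes were higher. A fit of 6 libraries gave 1 member higher for AZ5576 against YKL5124, where 641 of 15018 genes were higher. Leaving out 1 library gave 3 to 7 members higher with AZ5576, 0 to 1 higher with YKL5124, and 1 to 4 higher and 2 to 5 lower for AZ5576 against YKL5124. For the pathway list it gave 6 to 11 higher with AZ5576 and 8 to 15 lower for AZ5576 against YKL5124. Of the 16145 to 16247 genes tested in these fits, 2419 to 3086 were higher with AZ5576 and 861 to 1409 with YKL5124. For AZ5576 against YKL5124, 511 to 1183 were higher and 1124 to 1567 lower.

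Signs of called members turned as follows, and members not called are not listed here. With fly reads, THZ531 against DMSO became -0.010 for DKC1, -0.084 for DDX21, -0.095 for NOP16, -0.016 for RRP12, -0.14 for NOP14, -0.071 for GAR1, -0.058 for NHP2 and -0.15 for NOP10. YKL5124 against THZ531 became 0.062 for NOC2L, 0.0098 for RRS1, 0.072 for BOP1, 0.049 for NOP14, 0.076 for POLR1E, 0.098 for NHP2 and 0.10 for NOP10, and AZ5576 against THZ531 became 0.014 for DDX21. By read total, THZ531 against DMSO became -0.062 for NOP14, -0.017 for NOP16, -0.0062 for DDX21 and -0.067 for NOP10. YKL5124 against THZ531 became 0.071 for NHP2, 0.043 for BOP1, 0.072 for NOP10, 0.036 for NOC2L, 0.048 for POLR1E and 0.022 for NOP14, and AZ5576 against THZ531 became 0.0095 for DDX21. Beside those scalings and the left-out libraries, calls against DMSO were lost by upper-quartile scaling for NOP56 and POLR1E, by DESeq2 for UTP15, UBTF, NOB1, GNL3 and NIP7, and by summing rows for NHP2 and BOP1, among other settings. Same-numbered libraries correlated at -0.102 to 0.0724 and differently numbered ones at -0.0873 to 0.106, so no pairing by number was seen. Such a check cannot show whether equal numbers mark a shared culture or day. A replicate block left 2 members higher for AZ5576 against YKL5124, in place of 3, with NOP10 the call lost, and left the other counts of members unchanged. UTP20, with 402 reads over 12 libraries, had the least depth, and its SE of 0.22 to 0.24 limits what could be seen there.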
